A study of Mus musculus with 12 samples.

Results

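Integrins and laminins are built from chains, each encoded by its own gene, and the 31 mouse genes of these chains were followed in the livers of mice on 4 diets. The members were all rows of the deposited gene table whose symbol is an integrin chain with a number (*Itga1* to *Itga11*, *Itga2b* and *Itgb1* to *Itgb8*) or a laminin chain (*Lama*, *Lamb* or *Lamc* with a number), which gave 20 integrin and 11 laminin genes of 54532 genes in all. The lettered integrin chains, such as *Itgav* and *Itgax*, do not fall under this rule and are described as partners.

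The livers came from 12 male C57BL/6J mice, 3 in each of 4 groups, on their diets for 26 weeks from an age of 5 weeks. The first group received a normal diet (ND), and the mice called control received a high-fat diet (HFD). The other groups received the HFD with 1% HYA, a hydroxy fatty acid that gut bacteria make from linoleic acid, or with 1% LA, linoleic acid itself. The label of the HYA diet writes HYD where the others write HFD, and it was read as HFD. All groups were of the same sex and strain and carried no genetic change, so that control, HYA-treated and LA-treated mice shared the HFD and differed in the supplement. RNA was of whole liver, in which fewer cells of a type and less RNA per cell cannot be told apart. The labelled tissue showed hepatocyte markers at a summed level between 27790 and 44546 FPKM (fragments per kilobase of gene, scaled to library size). Of these 6 markers 5 fell on the HFD (control against ND-fed mice), as did 19.1% of all genes tested.

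Integrins are receptors of the cell surface made of an α and a β chain. They hold cells to the extracellular matrix, and adaptor proteins such as talin and kindlin join their inner ends to the actin skeleton. Laminins are cross-shaped proteins of an α, a β and a γ chain that form, with collagen IV and nidogen, the sheet of basement membranes. The normal liver sinusoid has no continuous basement membrane, whereas bile ducts and vessels have one, and laminin deposition along sinusoids is a known feature of liver fibrosis.

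For the 3 laminin β genes and *Itgb5*, the bases before the start site from RefSeq (build GRCm38.p6, plus strand) are shown where they hold no annotated exon base. They serve to show what sequence these genes have in front of them. The genes were picked after their values were seen and are not all the members whose mRNA rose on the HFD. Capitals mark matches, on either strand, to CAGAC (the CAGA box bound by Smad proteins, which carry TGF-β signals) or to GGGCGG (the GC box bound by Sp1). The stretches are chr12:31265043-31265233, chr9:108479612-108479735, chr1:193301744-193301992 and chr16:33829415-33829664, and that of *Lamb2* holds no match to either.
*Lamb1*: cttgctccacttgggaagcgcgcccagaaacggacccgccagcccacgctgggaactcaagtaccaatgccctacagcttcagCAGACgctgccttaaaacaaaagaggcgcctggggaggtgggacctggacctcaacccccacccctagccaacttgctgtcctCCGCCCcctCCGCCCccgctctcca
*Lamb2*: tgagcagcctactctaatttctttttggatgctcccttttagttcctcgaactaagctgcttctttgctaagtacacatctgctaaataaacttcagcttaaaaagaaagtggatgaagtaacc
*Lamb3*: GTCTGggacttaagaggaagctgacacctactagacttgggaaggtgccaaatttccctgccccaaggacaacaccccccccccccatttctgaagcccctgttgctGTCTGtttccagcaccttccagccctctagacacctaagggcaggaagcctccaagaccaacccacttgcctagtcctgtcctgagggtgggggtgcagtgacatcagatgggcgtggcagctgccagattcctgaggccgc
*Itgb5*: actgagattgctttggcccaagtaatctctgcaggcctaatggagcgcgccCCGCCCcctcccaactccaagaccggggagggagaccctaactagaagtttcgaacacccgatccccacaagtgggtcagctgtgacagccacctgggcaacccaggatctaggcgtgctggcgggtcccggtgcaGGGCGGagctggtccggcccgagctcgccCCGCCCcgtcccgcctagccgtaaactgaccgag
The 20 members found in the RefSeq table have 23 windows of the full 250 bases before a start, of which 14 held a CAGA box, 8 a GC box and 0 the AP-1 motif TGANTCA. The shares among all 32851 such windows were 42.2% for the CAGA box, 32.7% for the GC box and 6.75% for the AP-1 motif. These are matches of letters and not sites of binding. The *Lamb3* start of RefSeq lies 94295 bases inside the gene as the table draws it, and the gene as the table draws it begins upstream of this window.

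Fragments on genes numbered 17169064 to 25220880 per mouse, of which 8335 to 15824 were on the 31 members. The deposited values are FPKM, which can be compared between genes as levels per length. The best expressed member was *Itgb1*, the β1 chain that pairs with most α chains, between 51.4 and 56.8 FPKM over all mice. *Itgb5*, whose chain joins αv in a vitronectin receptor, followed with 21.3 to 35.0 FPKM, and *Itgb2*, the β chain of leukocyte integrins, with 3.86 to 7.89 FPKM. The ranges of *Itgb1* and *Itgb5* overlapped with that of no other member, whereas *Itgb2* overlapped with *Itga5*, *Itga9* and *Lamc1*.

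Among α chains, *Itga5*, the fibronectin receptor chain, was highest, at 3.76 to 7.79 FPKM. *Itga9* (3.48 to 6.06 FPKM) binds tenascin and osteopontin, *Itga1* (2.11 to 3.15 FPKM) collagen, *Itga3* (1.54 to 2.92 FPKM) laminin, *Itga8* (0.666 to 2.34 FPKM) nephronectin and fibronectin, and *Itga7* (0.871 to 1.66 FPKM) laminin. Of these, *Itga5* and *Itga9* were not separated by their spread over mice, and nor were *Itga1* and *Itga3*. The range of *Itga8* overlapped with those of *Itga1*, *Itga3* and *Itga7*, and that of *Itga7* also with that of *Itga3*. *Itgb7*, the β chain of gut-homing lymphocytes, was at 0.657 to 1.48 FPKM.

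Of the laminin genes, *Lamc1*, the γ1 chain present in most laminins, led with 2.56 to 5.94 FPKM. The β chain genes *Lamb3* (0.895 to 3.02 FPKM), *Lamb2* (1.09 to 2.29 FPKM) and *Lamb1* (0.838 to 2.43 FPKM) overlapped with each other. The α chain genes had means under 1 FPKM over the 12 mice, with ranges of 0.540 to 1.20 FPKM for *Lama1*, 0.558 to 1.09 for *Lama4*, 0.515 to 1.08 for *Lama5*, 0.108 to 0.896 for *Lama3* and 0.0809 to 0.421 for *Lama2*. *Lamc3* lay at 0.539 to 1.39 FPKM.

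The other integrin chains under a mean of 1 FPKM were *Itgb3* (0.523 to 1.12 FPKM), *Itga6* (0.321 to 0.912 FPKM), *Itga4* (0.211 to 0.773 FPKM), *Itga2b* (0.378 to 0.647 FPKM), *Itga10* (0.161 to 0.409 FPKM), *Itgb4* (0.0628 to 0.288 FPKM), *Itgb8* (0.0309 to 0.249 FPKM), *Itga2* (0.0078 to 0.145 FPKM), *Itga11* (0.0158 to 0.101 FPKM) and *Itgb6* (0 to 0.079 FPKM). *Itga2b* and *Itgb3* form the fibrinogen receptor of platelets, and *Itga6* and *Itgb4* the laminin receptor of hemidesmosomes. *Itgb6* and *Itgb8* encode chains that join αv in receptors able to activate latent TGF-β.

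**Figure D1:**
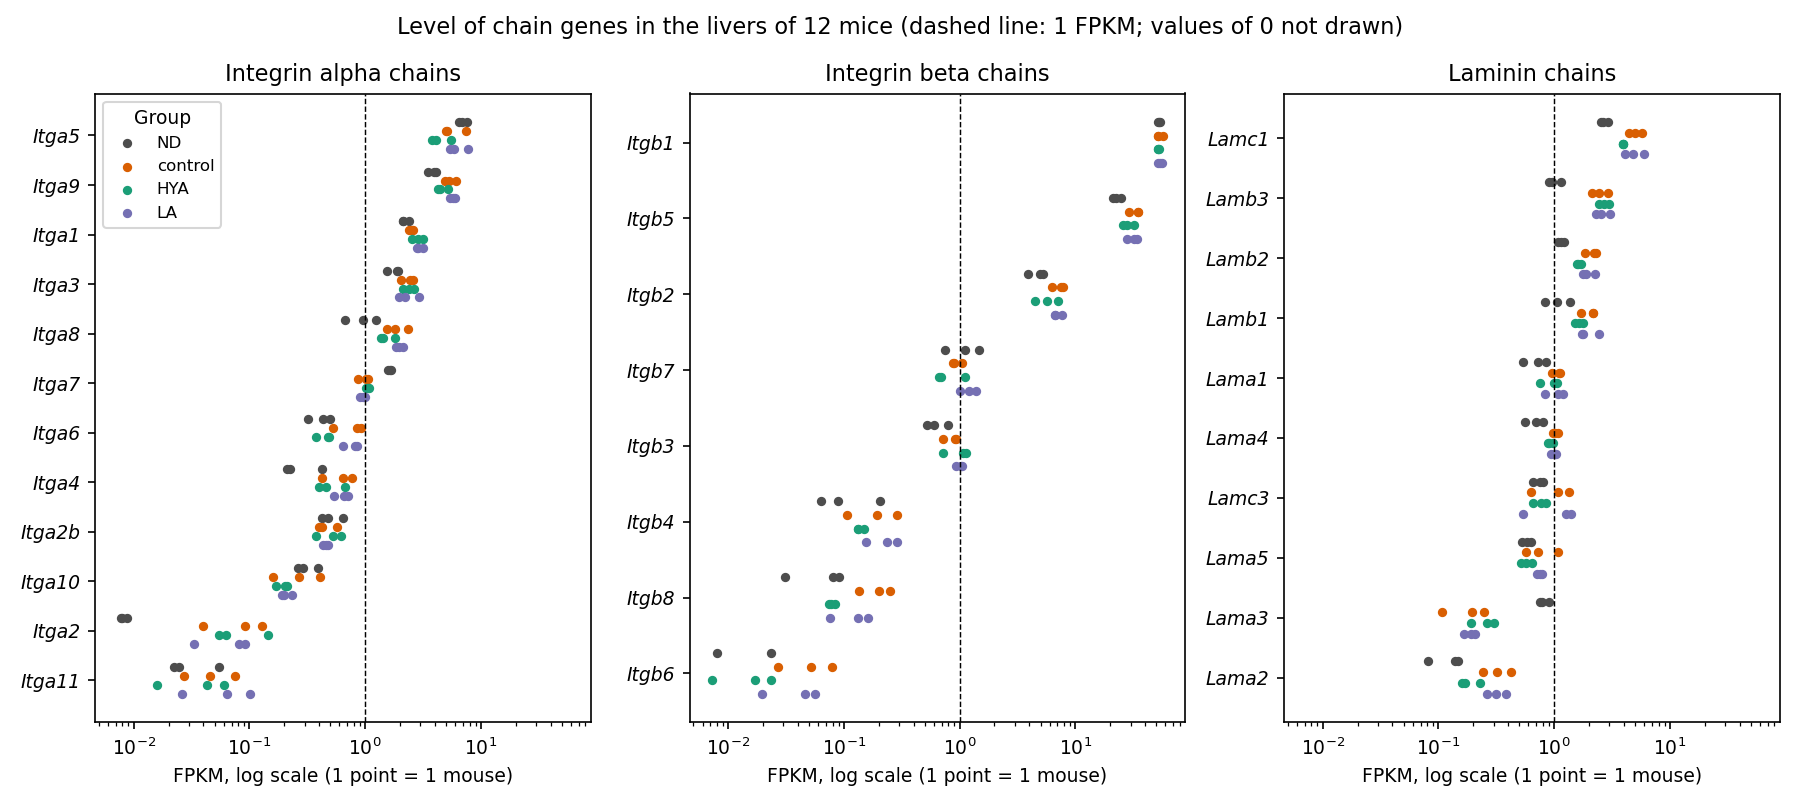
Each point is the FPKM (x axis, log scale) of one chain gene (y axis) in one of the 12 mice, coloured by diet group, with a dashed line at 1 FPKM and values of 0 not drawn. *Itgb1* lies at 51.4 to 56.8 FPKM in all groups, while *Lama3* lies at 0.757 to 0.896 FPKM in ND-fed mice and at 0.108 to 0.301 FPKM in the others.

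Groups were compared with limma, a linear model across all genes, on log2(FPKM + 1), a scale that understates the change of low genes. A gene counts as risen or fallen where its p-value, adjusted after Benjamini and Hochberg over the 11083 genes that averaged 1 FPKM or more, was under 0.05, and 14 of the 31 members passed this filter. A second fit with limma voom used the fragments recovered from the FPKM values and 14353 genes averaging 10 fragments or more, 28 members among them. *Itga2*, *Itga11* and *Itgb6* stayed out of both.

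Feeding the HFD moved more than one group of these genes. In control compared with ND-fed mice, mRNA of the 3 laminin β chain genes and of *Lamc1* rose by 1.84- to 2.51-fold in mean FPKM, and that of *Itgb5*, *Itgb2*, *Itga9* and *Itga8* by 1.41- to 1.99-fold, whereas *Itga7* fell. Of the 14 members tested 8 were higher (57.1%) and 1 was lower (7.14%), against 16.2% higher and 19.1% lower among all genes tested. The other 5 did not pass the test, among them the abundant *Itgb1* and *Itga5*. The median log2 fold change was 0.45 for the 14 members and −0.04 for all genes. With the recovered fragments 14 of 28 members were higher and 2 lower, with 17.6% and 15.7% among all genes. No member passed with a log2 fold change above 1 added to limma on FPKM (0 of 14, against 3.88% of all genes), and 5 of 28 did with voom, against 9.48% of all genes.

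*Lamb3* (ENSMUSG00000026639, chromosome 1, 193207699 to 193343878, GRCm38) encodes the β3 chain of the laminin of epithelial anchoring structures. It was at 1.14, 0.895 and 0.959 FPKM in the ND-fed mice and at 2.44, 2.95 and 2.14 FPKM in the control mice. In HYA-treated mice the values were 2.99, 2.67 and 2.45 FPKM, and in LA-treated mice 2.52, 3.02 and 2.30 FPKM. All 9 mice on the HFD lay above all ND-fed mice, and the 3 HFD groups overlapped with one another. The log2 fold change of control against ND-fed mice was 0.81 (standard error 0.10, adjusted p = 0.000205, limma), and with recovered fragments it was 1.32 (standard error 0.18, adjusted p = 0.000154, limma voom). Within the span of *Lamb3* lie *Hsd11b1* and *G0s2* on the other strand, which share 0 exon bases with it. Their means went from 135.6 to 71.6 FPKM and from 93.4 to 127 FPKM between ND-fed and control mice.

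*Lama3* (ENSMUSG00000024421, chromosome 18, 12333819 to 12583013) encodes the α chain that joins β3 in that same laminin, and it went the other way. It is described here as a gene under the FPKM filter, singled out after its values were seen. The ND-fed mice had 0.757, 0.896 and 0.787 FPKM (143, 153 and 152 fragments), and the control mice 0.108, 0.248 and 0.193 FPKM (25, 57 and 43 fragments). In HYA-treated mice *Lama3* was at 0.192, 0.262 and 0.301 FPKM and in LA-treated mice at 0.205, 0.166 and 0.192 FPKM. The highest of the 9 mice on the HFD (0.301 FPKM) lay well under the lowest ND-fed mouse (0.757 FPKM). The ND-fed mean was 4.44 times the control mean, with a log2 fold change of −2.21 on recovered fragments (standard error 0.25, adjusted p = 3.13e-05, limma voom).

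The ratio of *Lamb3* to *Lama3* FPKM, which is a ratio per length, was thus 1.24 ± 0.257 in ND-fed mice (mean ± SD, n = 3 mice per group, as below) and 15.2 ± 6.41 in control mice. It was 11.3 ± 3.83 with HYA and 14.2 ± 3.52 with LA, and the range of ND-fed mice (0.998 to 1.51) lay apart from those of the HFD groups (8.15 to 22.6 over them all). As a share of the summed FPKM of the 5 laminin α genes, *Lama3* made up 28.3% in ND-fed mice and 5.56% in control mice, 8.72% in HYA-treated mice and 5.68% in LA-treated mice. These ratios and shares are descriptions without a test.

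The other laminin β genes and the main γ gene moved upward together. *Lamb1* (ENSMUSG00000002900, chromosome 12, 31265234 to 31329644), the β1 chain of many laminins, was at 1.05, 0.838 and 1.38 FPKM in ND-fed mice and at 2.16, 1.71 and 2.15 FPKM in control mice. It was at 1.76, 1.51 and 1.63 FPKM with HYA and at 2.43, 1.73 and 1.77 FPKM with LA. All control mice exceeded all ND-fed mice (log2 fold change 0.53 ± 0.12 SE, limma adjusted p = 0.0053).

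*Lamb2* (ENSMUSG00000052911, chromosome 9, 108479736 to 108490530) encodes the β chain known from vessel walls, synapses and the kidney filter. Its values were 1.09, 1.15 and 1.21 FPKM in ND-fed mice, 2.29, 1.84 and 2.21 FPKM in control mice, 1.57, 1.71 and 1.62 FPKM in HYA-treated mice and 2.26, 1.89 and 1.76 FPKM in LA-treated mice. The ND-fed mice were lowest, the HYA-treated mice came next, and the control and LA-treated mice overlapped above them. The log2 fold change of control against ND-fed mice was 0.53 (standard error 0.08, adjusted p = 0.000538, limma).

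*Lamc1* (ENSMUSG00000026478, chromosome 1, 153218922 to 153332786) was at 2.94, 2.56 and 2.62 FPKM in ND-fed mice and at 5.75, 4.46 and 5.01 FPKM in control mice. The HYA-treated mice lay close together at 3.93, 3.93 and 3.94 FPKM, and the LA-treated mice had 5.94, 4.12 and 4.80 FPKM. The 4 groups fell in the same order as for *Lamb2*, again with control and LA-treated mice overlapping. Control mice exceeded ND-fed mice by a log2 fold change of 0.71 (standard error 0.11, adjusted p = 0.000554, limma).

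Summed over chains, laminin β genes stood at 3.24 ± 0.335 FPKM on the ND and at 6.63 ± 0.228 FPKM in control mice, and laminin γ genes at 3.58 ± 0.161 and 6.35 ± 1.04 FPKM. For the laminin α genes the sums were 2.91 ± 0.287 and 3.39 ± 0.398 FPKM and their ranges overlapped. In ND-fed mice the ranges of the α sum (2.60 to 3.17 FPKM) and the β sum (2.88 to 3.55 FPKM) overlapped. The γ sum (3.48 to 3.76 FPKM) lay above the α range. In control mice the ranges of the β sum (6.50 to 6.89 FPKM) and the γ sum (5.31 to 7.39 FPKM) both lay above that of the α sum (3.02 to 3.81 FPKM). On recovered fragments *Lama2* (log2 fold change 1.40, adjusted p = 0.00347), *Lama4* (0.58, adjusted p = 0.00342) and *Lama1* (0.60, adjusted p = 0.0325) also rose (limma voom). Thus 3 of the 5 α genes were higher, *Lama3* was lower and *Lama5* did not pass, against 17.6% higher and 15.7% lower among all genes of that fit. *Lama2* encodes the α chain of muscle and nerve laminin and *Lama4* that of vessel laminin. The call for *Lama1* was lost without ND-fed mouse 1 (adjusted p = 0.07), ND-fed mouse 2 (0.142), control mouse 1 (0.087) or control mouse 2 (0.0699), all by limma voom.

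**Figure D2:**
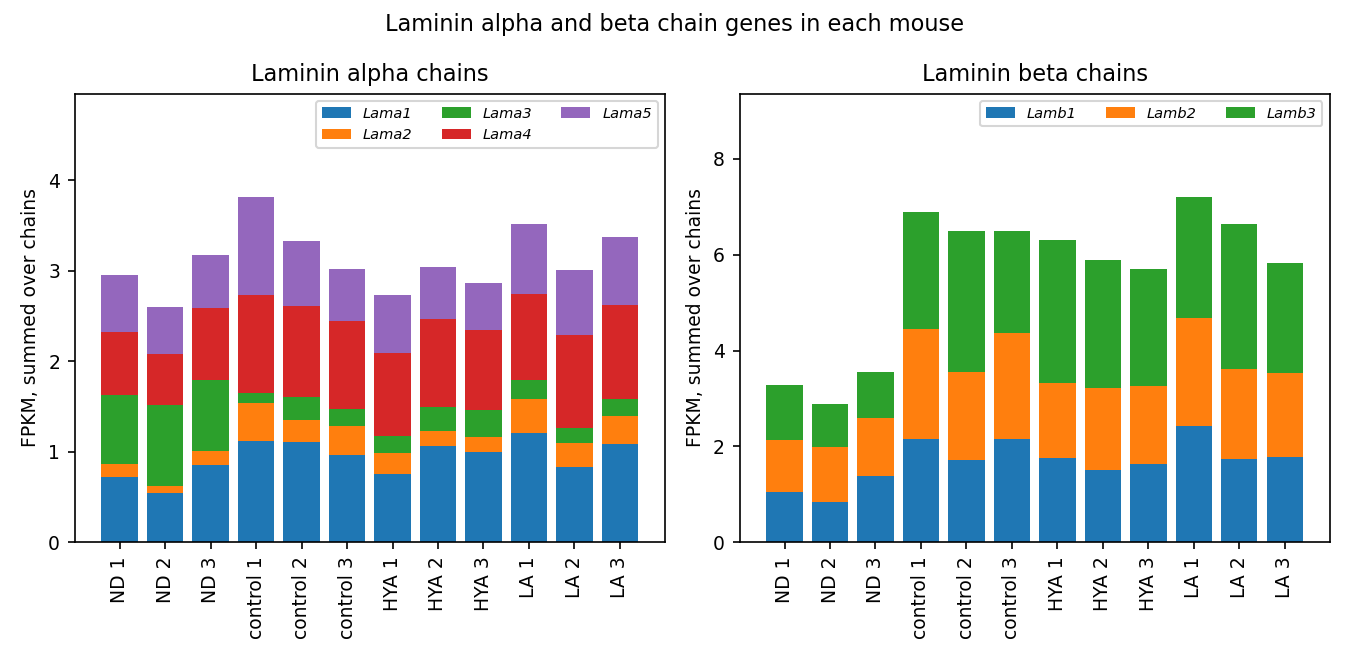
Bars give the FPKM of laminin α (left) and β (right) chain genes stacked by gene in each of the 12 mice. The β sum lies at 2.88 to 3.55 FPKM in ND-fed mice and at 5.70 to 7.21 FPKM in mice on the HFD, and the part of *Lama3* in the α sum is largest in ND-fed mice.

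Of the 10 integrin genes tested, 4 rose and 1 fell, against 16.2% higher and 19.1% lower among all genes tested. *Itgb5* (ENSMUSG00000022817, chromosome 16, 33829665 to 33949338) was at 22.3, 21.3 and 25.03 FPKM in ND-fed mice, 34.5, 29.2 and 35.0 FPKM in control mice, 31.9, 28.2 and 25.8 FPKM in HYA-treated mice and 34.2, 31.8 and 27.97 FPKM in LA-treated mice. Each mouse on the HFD exceeded each ND-fed mouse, and the HFD groups overlapped. The log2 fold change of control against ND-fed mice was 0.50 (standard error 0.10, adjusted p = 0.00359, limma). *Itgb1* had 52.8 ± 0.954 FPKM in ND-fed and 53.7 ± 2.70 FPKM in control mice (log2 fold change 0.02, 95% interval −0.09 to 0.14, limma adjusted p = 0.76). Its share of the summed β chain FPKM was 64.2% in ND-fed and 56.0% in control mice, and that of *Itgb5* 27.8% and 34.2%.

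*Itgb2* (ENSMUSG00000000290, chromosome 10, 77530252 to 77565708) was at 5.22, 3.86 and 4.98 FPKM in ND-fed mice, 7.45, 6.29 and 7.89 FPKM in control mice, 7.08, 4.46 and 5.63 FPKM in HYA-treated mice and 6.67, 6.62 and 7.64 FPKM in LA-treated mice. Control and ND-fed mice did not overlap, and the HYA-treated mice spanned both (log2 fold change of control against ND-fed mice 0.53 ± 0.14 SE, limma adjusted p = 0.0141). Without ND-fed mouse 2 this call was lost (adjusted p = 0.057, limma). All 7 of 7 leukocyte marker genes also rose, against 16.2% of all genes. Their summed level was 39.6 to 54.9 FPKM on the ND, 71.4 to 79.9 FPKM in control, 50.9 to 68.4 FPKM in HYA-treated and 68.9 to 74.9 FPKM in LA-treated mice. The part of these cells in the result for *Itgb2* was not tested.

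*Itga9* (ENSMUSG00000039115, chromosome 9, 118606690 to 118901003) was at 4.11, 3.48 and 3.97 FPKM in ND-fed mice, 6.06, 4.90 and 5.31 FPKM in control mice, 5.21, 4.28 and 4.46 FPKM in HYA-treated mice and 5.98, 5.38 and 5.70 FPKM in LA-treated mice. It rose by 0.40 on the log2 scale in control mice (standard error 0.09, adjusted p = 0.00465, limma). *Itga8* (ENSMUSG00000026768, chromosome 2, 12106632 to 12301922), a chain of stellate cells and other contractile cells, was at 0.958, 0.666 and 1.24 FPKM in ND-fed mice, 2.34, 1.55 and 1.81 FPKM in control mice, 1.83, 1.43 and 1.37 FPKM in HYA-treated mice and 2.13, 1.83 and 1.97 FPKM in LA-treated mice (log2 fold change of control against ND-fed mice 0.57 ± 0.13 SE, limma adjusted p = 0.00562). For both genes, each mouse on the HFD lay above each ND-fed mouse. Of the 10 stellate cell markers tested 4 rose (summed level 83.0 to 114 FPKM in ND-fed and 125 to 151 FPKM in control mice). So did 3 of 3 smooth muscle cell markers and 4 of 9 endothelial cell markers, against 16.2% of all genes. Their part in these results was not tested.

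*Itga7* (ENSMUSG00000025348, chromosome 10, 128933818 to 128958282) was the only tested integrin gene to fall in control mice. It was at 1.59, 1.63 and 1.66 FPKM in ND-fed mice, 1.02, 1.06 and 0.871 FPKM in control mice, 1.03, 1.05 and 1.07 FPKM in HYA-treated mice and 1.00, 0.950 and 0.898 FPKM in LA-treated mice. The ND-fed mice stood apart from all 9 others, with a log2 fold change of −0.41 (standard error 0.06, adjusted p = 0.000646, limma). *Itga7* shares 9 exon bases with *Mettl7b* on the other strand (472 FPKM in ND-fed and 558 FPKM in control mice), and the strand of counting is not stated.

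With recovered fragments, *Itgb8* (log2 fold change 1.59, adjusted p = 0.0113), *Itga4* (1.11, adjusted p = 0.0156) and *Itga6* (0.84, adjusted p = 0.0219) also rose in control mice (limma voom). These levels rest on few fragments, with 6 to 57 per mouse for *Itgb8*. The calls were lost without ND-fed mouse 1 for *Itgb8* (adjusted p = 0.0585, limma voom). They were lost without ND-fed mouse 2 (0.0655) or 3 (0.0755) for *Itga4*. For *Itga6* they were lost without ND-fed mouse 1 (0.0522) or 2 (0.0935), or without control mouse 1 (0.0752) or 3 (0.0545). *Itga4*, a chain of leukocytes, shares 1124 of its 13978 exon bases with *Cerkl* on the other strand, which had 0.451 FPKM in ND-fed and 0.903 FPKM in control mice, and reads in the shared bases cannot be told apart. *Itga2*, a collagen receptor chain, had 1 fragment in each ND-fed mouse and 6 to 19 in control mice, 7 to 20 in HYA-treated mice and 5 to 14 in LA-treated mice, and was not tested.

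*Itga3* (1.79 ± 0.221 FPKM in ND-fed and 2.37 ± 0.297 FPKM in control mice; adjusted p = 0.0848), *Itga1* (2.20 ± 0.143 and 2.50 ± 0.109 FPKM; 0.18), *Itga5* (6.98 ± 0.563 and 5.87 ± 1.42 FPKM; 0.297) and *Itgb7* (1.11 ± 0.365 and 0.942 ± 0.101 FPKM; 0.574) did not pass (limma). When all columns were rescaled to an equal total (TPM), the median of all genes moved to 0.17 and *Itgb1*, *Itga1* and *Itga3* passed as well, so that for these 3 genes the call turns on the scaling. Of all genes called, 45.9% were higher in control mice with FPKM and 83.8% with TPM. *Lamb1*, *Lamb2*, *Lamb3*, *Lamc1*, *Itgb5*, *Itgb2*, *Itga9*, *Itga8* and *Itga7* passed in the same direction under both.

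**Figure D3:**
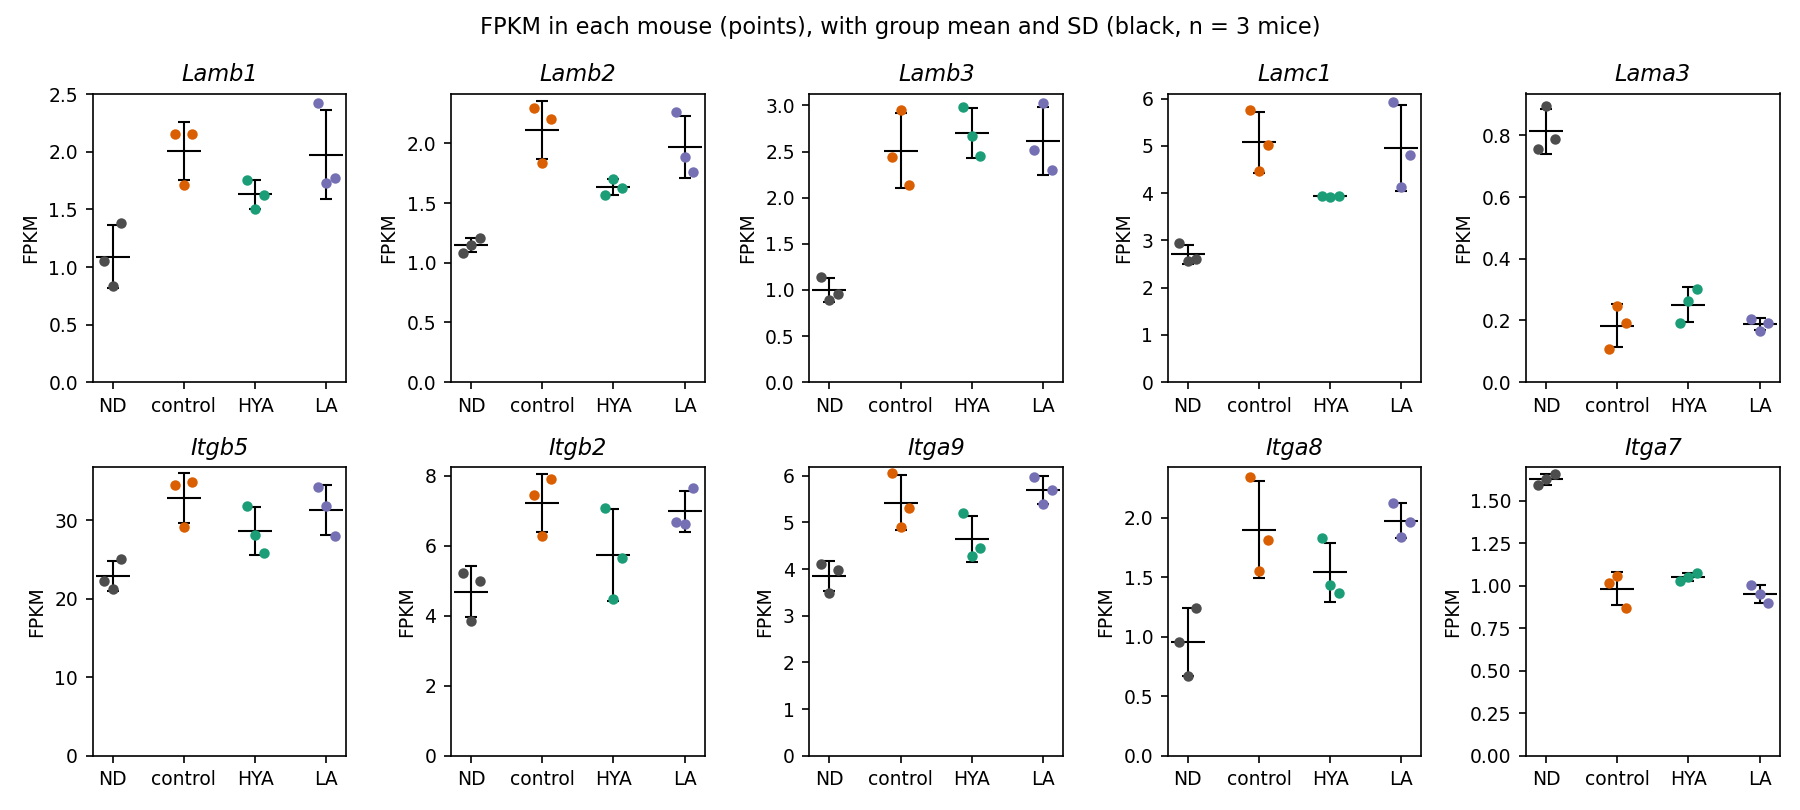
Points give the FPKM (y axis, from 0) of 10 chain genes in each mouse by group, with the group mean and SD (n = 3 mice) in black. For *Lamb3*, *Itga7* and *Lama3* the 9 mice on the HFD lie together and apart from the ND-fed mice, and for *Lamb2* and *Lamc1* the HYA-treated mice lie between ND-fed and control mice.

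The question whether HYA changed these genes on the HFD was put by comparing HYA-treated with control mice. No member passed the test (limma, 0 of 14), against 1.57% of all genes higher and 1.23% lower, and 2 members had an unadjusted p-value under 0.05, as did 18.5% of all genes. Nor did any of the 28 members with limma voom (0, with 1.72% of all genes higher and 1.84% lower), where 8 members and 19.4% of all genes had an unadjusted p-value under 0.05. Of the 14 members 10 had a lower level in HYA-treated mice, and the median log2 fold change was −0.19, beside 0.02 for all genes. Of the 28 members in the voom fit 21 had a lower level, with a median log2 fold change of −0.27, beside 0.002 for all genes. Rescaled to TPM, the median of all genes was −0.09, and of the genes called 19.5% were higher in HYA-treated mice, beside 56.1% with FPKM.

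The members with the lowest p-values were *Lamb2*, with a log2 fold change of −0.24 (95% interval −0.42 to −0.06, limma adjusted p = 0.137), and *Lamc1*, with −0.29 (95% interval −0.53 to −0.06, limma adjusted p = 0.167). For both, all 3 HYA-treated mice lay below all control mice and above all ND-fed mice. *Lamb3*, in contrast, had a higher mean in HYA-treated than in control mice, with a log2 fold change of 0.08 (95% interval −0.15 to 0.31, adjusted p = 0.749, limma), and *Itga7* had 0.05 (95% interval −0.09 to 0.19, adjusted p = 0.749, limma). *Itgb1* had −0.04 (95% interval −0.15 to 0.08, adjusted p = 0.771, limma).

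Among the low members of the voom fit, *Itgb8* was at 0.202, 0.135 and 0.249 FPKM in control mice and at 0.0839, 0.0748 and 0.0768 FPKM with HYA (change −1.25 on the log2 scale, limma voom adjusted p = 0.0864). *Lama2* was at 0.421, 0.244 and 0.319 FPKM and at 0.227, 0.169 and 0.161 FPKM (−0.81, adjusted p = 0.0936, limma voom), and *Itga6* at 0.912, 0.524 and 0.856 FPKM and at 0.486, 0.379 and 0.480 FPKM (−0.72, adjusted p = 0.109, limma voom). The HYA-treated mice lay below the control mice for each of these 3 genes. They were singled out after their values were seen. Without control mouse 2, *Itga6* (adjusted p = 0.0106), *Lama2* (0.0274), *Itgb8* (0.0317) and *Lamb2* (0.036) passed (limma voom), so that 1 library decides the count of 0.

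Summed laminin γ genes were at 4.88 ± 0.182 FPKM in HYA-treated against 6.35 ± 1.04 FPKM in control mice, and laminin β genes at 5.97 ± 0.314 against 6.63 ± 0.228 FPKM. Integrin β genes summed to 88.6 ± 4.32 FPKM in HYA-treated, 96.0 ± 5.71 FPKM in control and 82.3 ± 3.54 FPKM in ND-fed mice. For integrin α genes the sums were 18.7 ± 2.04, 21.3 ± 2.35 and 19.0 ± 0.859 FPKM in the same order, and their ranges overlapped.

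**Figure D4:**
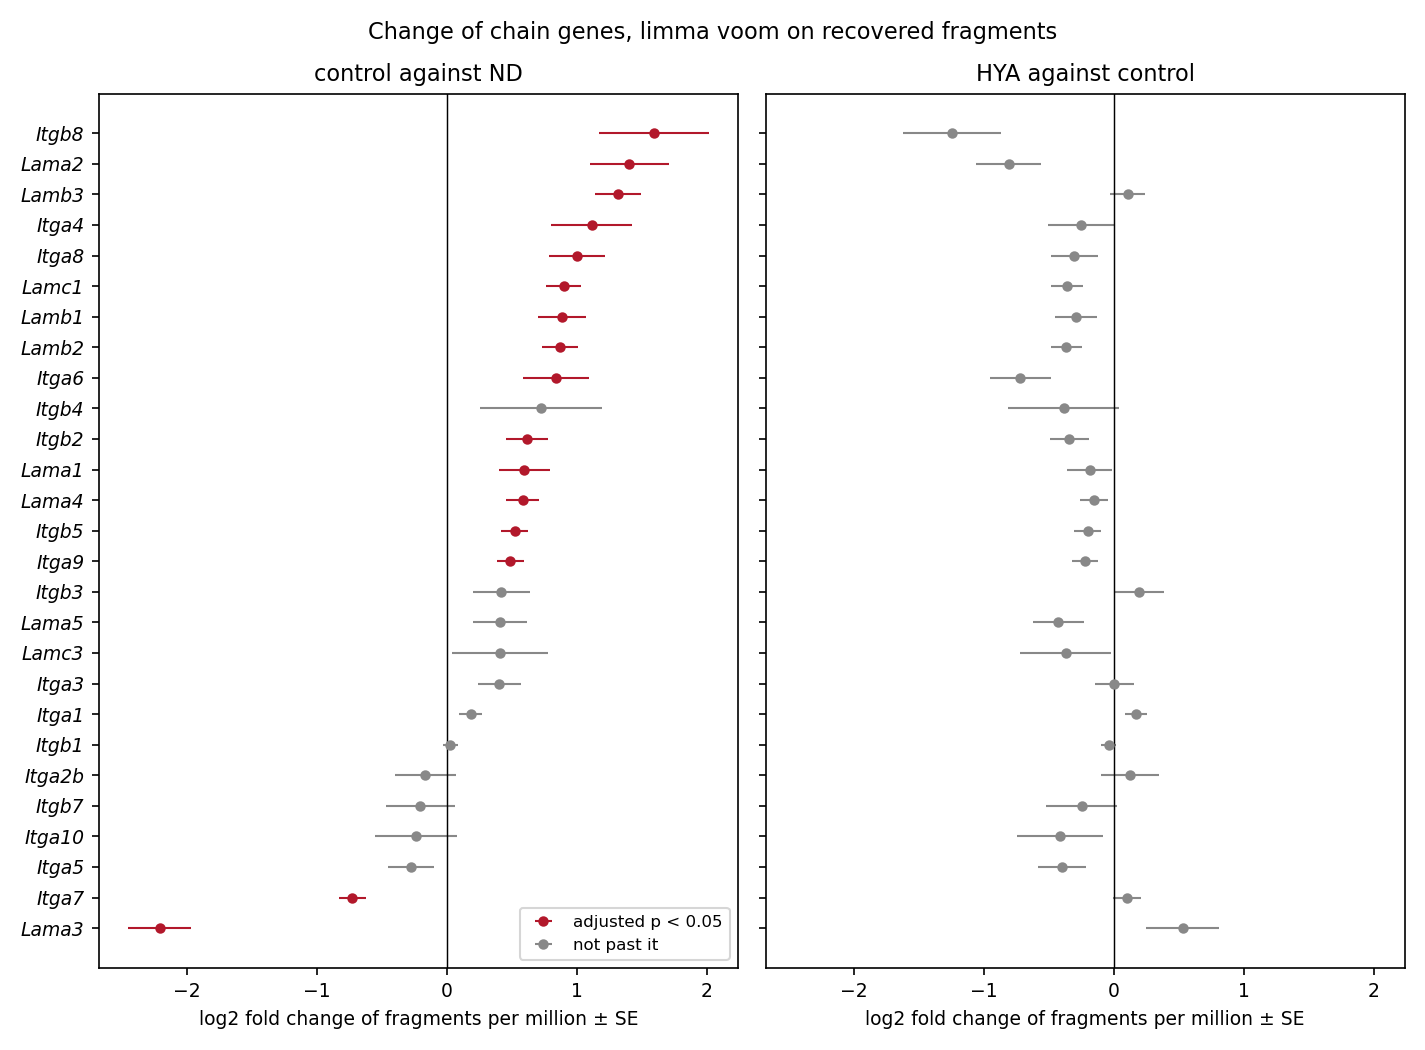
Points give the log2 fold change (x axis) with its standard error for chain genes of the fit on recovered fragments, for control against ND (left) and HYA against control (right), with red for an adjusted p-value under 0.05. In the left panel 14 genes are higher and 2 lower in red, and in the right panel no gene is red and most points lie left of 0.

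HYA-treated mice were also set against ND-fed mice, which share neither the diet nor the supplement. Here 4 of 14 members were higher (28.6%, against 8.72% of all genes) and 2 lower (14.3%, against 7.85%). The higher genes were *Lamb3* (log2 fold change 0.89, standard error 0.10, adjusted p = 0.00029), *Lamc1* (0.41, adjusted p = 0.0235), *Lamb2* (0.29, adjusted p = 0.03) and *Itga1* (0.26, adjusted p = 0.0304), and the lower genes *Itga7* (−0.36, adjusted p = 0.00346) and *Itga5* (−0.56, adjusted p = 0.0397), all by limma. *Lamb3* and *Itga7* passed whichever mouse was left out. The others did not, and without ND-fed mouse 2 or without HYA-treated mouse 2 the count was 2 in place of 6, and it was 3 without ND-fed mouse 1 or without mouse 1 or 3 of the HYA-treated group. On recovered fragments *Lama3* was lower in HYA-treated than in ND-fed mice by a log2 fold change of −1.68 (adjusted p = 0.000275, limma voom).

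*Itga5* was at 7.60, 6.83 and 6.51 FPKM in ND-fed mice, 5.09, 5.00 and 7.50 FPKM in control mice, 5.49, 4.10 and 3.76 FPKM in HYA-treated mice and 7.79, 5.84 and 5.42 FPKM in LA-treated mice. It was singled out after its values were seen, as the one member called lower in HYA-treated than in ND-fed mice that was not called lower in control mice, and control mouse 3 lay within the ND-fed range. The call of *Itga5* against ND-fed mice was also lost with no filter (adjusted p = 0.0954), with a filter at 0.1 FPKM (0.0561) or with TPM (0.0802), all by limma. The comparison of HYA-treated with control mice gave a log2 fold change of −0.33 for this gene (95% interval −0.69 to 0.04, adjusted p = 0.322, limma).

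HYA carries a hydroxyl group where LA has a double bond, and both were given at 1% for the same time. Between LA-treated and control mice 0 of the 14 members passed (limma, against 0% of all genes), with 1 at an unadjusted p-value under 0.05, beside 2.65% of all genes. With limma voom it was 0 of 28, against 0% of all genes, again with 1 at an unadjusted p-value under 0.05, beside 3.02% of all genes. The intervals were widest for *Itga5* (log2 fold change 0.10, 95% interval −0.26 to 0.47) and narrowest for *Itgb1* (0.01, 95% interval −0.10 to 0.12). *Itga1* had the lowest p-value, with 2.38, 2.56 and 2.57 FPKM in control mice and 3.15, 2.83 and 2.85 FPKM in LA-treated mice (log2 fold change 0.17, 95% interval 0.02 to 0.33, limma adjusted p = 0.999). It was at 2.14, 2.11 and 2.37 FPKM in ND-fed mice and at 3.14, 2.84 and 2.53 FPKM in HYA-treated mice. The LA-treated mice thus lay above the control mice and overlapped with the HYA-treated mice. *Itgb7* came next (limma adjusted p = 0.999), with 1.06, 0.879 and 0.889 FPKM in control, 1.02, 1.39 and 1.20 FPKM in LA-treated, 1.12, 0.657 and 0.686 FPKM in HYA-treated and 1.48, 0.750 and 1.10 FPKM in ND-fed mice, and all its groups overlapped.

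In HYA-treated compared with LA-treated mice 0 of the 14 members passed (limma, against 0.487% of all genes), and 3 had an unadjusted p-value under 0.05, as did 17.2% of all genes. With limma voom 0 of 28 passed, against 1.56% of all genes, and 7 had an unadjusted p-value under 0.05, as did 17.6% of all genes. Without control mouse 2, which enters the shared estimate of the spread, the voom count was 1 (*Itga6*). The 3 in limma were *Itga9* (log2 fold change −0.25, 95% interval −0.44 to −0.06, adjusted p = 0.174), *Itga5* (−0.43, 95% interval −0.79 to −0.07, adjusted p = 0.208) and *Lamc1* (−0.26, 95% interval −0.50 to −0.02, adjusted p = 0.244), all by limma. The levels were lower in HYA-treated mice for 11 of the 14 members, with a median log2 fold change of −0.17, beside 0.01 for all genes. Rescaled to TPM, the median of all genes was −0.095 in this comparison. In LA-treated compared with ND-fed mice, 9 members were higher and 1 lower (14.4% and 16.6% of all genes), namely *Lamb1*, *Lamb2*, *Lamb3*, *Lamc1*, *Itgb5*, *Itgb2*, *Itga9*, *Itga8* and *Itga1* upward and *Itga7* downward. Of these, *Itgb2* was lost without ND-fed mouse 2 (limma adjusted p = 0.0861) or LA-treated mouse 3 (0.0758). The share of called genes that were higher also moved with TPM, from 52.6% to 79.8% for HYA against ND, from 46.4% to 85.4% for LA against ND and from 48.1% to 18.8% for HYA against LA. The comparisons with ND-fed mice share those mice, and those with control mice share the control mice.

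The partners of these chains were looked at as fixed lists. Of 8 other integrin chains 3 were tested, and *Itgax* and *Itgav* rose in control mice while *Itgal* did not pass. *Itgax*, the αX chain of myeloid cells that pairs with β2, averaged 0.253 ± 0.124 FPKM on the ND and 2.08 ± 0.393 FPKM on the HFD alone (log2 fold change 1.29, limma adjusted p = 4.46e-05). It was lower in HYA-treated mice, at 0.927 ± 0.212 FPKM (log2 fold change against control mice −0.67, adjusted p = 0.0304, limma), and stood at 1.52 ± 0.289 FPKM in LA-treated mice. This call was lost without control mouse 1 or 3 or without HYA-treated mouse 2 or 3, and also with no filter, with a pseudocount of 0.1, with only the groups compared or with the fold threshold. Of the 11 macrophage markers tested 6 rose in control mice and 1, *Timd4*, fell, against 16.2% and 19.1% of all genes. Their summed level was 216 to 317 FPKM on the ND, 341 to 372 FPKM in control, 251 to 342 FPKM in HYA-treated and 350 to 369 FPKM in LA-treated mice. The part of these cells in the result for *Itgax* was not tested. *Itgav*, the partner of β5 and β8, went from 2.75 ± 0.145 to 3.42 ± 0.428 FPKM (adjusted p = 0.0329, limma), a call lost without ND-fed mouse 2 or 3 or without control mouse 1 or 3, and *Itgal*, the αL chain, from 3.83 ± 1.23 to 4.47 ± 0.709 FPKM (adjusted p = 0.37, limma). In HYA-treated mice *Fcer1g*, 1 of the 7 leukocyte markers, was called lower than in control mice, and so were *Cd9* and *Gpnmb* among 11 macrophage markers. Of the 6 hepatocyte markers 2 were called higher and 0 lower in this comparison. The summed level of the hepatocyte markers was 27790 to 31991 FPKM in control and 36770 to 38618 FPKM in HYA-treated mice.

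Of 24 adaptor and focal adhesion genes tested 6 rose and 2 fell in control mice, against 16.2% and 19.1% of all genes, with a median log2 fold change of 0.08. *Flna*, the actin crosslinker filamin A, went from 4.78 ± 0.417 to 8.72 ± 1.13 FPKM (adjusted p = 0.000457), and *Lims1*, the adaptor PINCH, from 3.78 ± 0.161 to 5.39 ± 0.549 FPKM (adjusted p = 0.000787). *Fermt2*, a kindlin, which activates integrins, fell from 35.8 ± 1.66 to 20.2 ± 3.87 FPKM (adjusted p = 0.000459, all by limma). In HYA-treated mice they were at 6.50 ± 0.762, 4.91 ± 0.155 and 25.7 ± 2.56 FPKM, and 0 of the 24 passed against control mice, with 4 at an unadjusted p-value under 0.05 beside 18.5% of all genes (limma). With voom on recovered fragments the count for HYA against control was likewise 0, and without control mouse 2 it was 1 (limma).

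Of 16 basement membrane and laminin-binding genes tested 9 rose and 3 fell in control mice, against 16.2% and 19.1% of all genes, with a median log2 fold change of 0.34. *Sparc*, a collagen-binding protein, went from 12.8 ± 1.39 to 32.8 ± 4.97 FPKM (a log2 fold change of 1.29, limma adjusted p = 3.9e-05). *Nid1*, the nidogen that links laminin γ1 to collagen IV, went from 3.07 ± 0.317 to 10.1 ± 2.41 FPKM (1.42, adjusted p = 0.000101, limma), and *Col4a2*, a collagen IV chain, from 4.68 ± 0.455 to 10.8 ± 2.11 FPKM (1.05, adjusted p = 0.000179, limma). Those that fell were *Col18a1*, *Sdc4* and *Sdc1*, a collagen and 2 syndecans. In HYA-treated mice *Nid1* was at 5.76 ± 0.625 FPKM (log2 fold change against control mice −0.69, adjusted p = 0.0512), *Sparc* at 22.8 ± 2.30 FPKM (−0.50, adjusted p = 0.0631) and *Col4a2* at 7.66 ± 0.704 FPKM (−0.44, adjusted p = 0.104, all by limma). Of the 16 genes 0 passed in this comparison with limma, with 9 at an unadjusted p-value under 0.05 beside 18.5% of all genes, and 2 passed with limma voom. Without control mouse 2 the count was 4 (limma).

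Genes of bile duct cells, which make an epithelial laminin, were looked at beside *Lamb3*. Their summed marker level was 25.3 to 35.2 FPKM on the ND, 83.1 to 177 FPKM in control, 43.6 to 57.3 FPKM in HYA-treated and 86.2 to 141 FPKM in LA-treated mice. Of 4 tested genes 2 (*Spp1* and *Epcam*) were higher in control mice, against 16.2% of all genes. The same 2 were lower with HYA than without it on the HFD, against 1.23% of all genes. The defining marker *Cftr* averaged under 0.1 FPKM over the 12 mice. *Lamb3* averaged 1.00 FPKM in ND-fed, 2.51 FPKM in control, 2.70 FPKM in HYA-treated and 2.61 FPKM in LA-treated mice. The part of these cells in the result for *Lamb3* was not tested. Platelet markers were looked at beside *Itga2b* and *Itgb3*. The marker sum was 0.892 to 1.14 FPKM on the ND, 2.12 to 3.24 in control, 1.31 to 3.38 with HYA and 1.69 to 2.87 with LA. Of the 7 markers 4 averaged under 0.1 FPKM, among them *Treml1*, *Gp1ba* and *Gp1bb*. Only 1 marker was tested, and it rose in control mice. Neither *Itga2b* (log2 fold change of control against ND −0.17, adjusted p = 0.619) nor *Itgb3* (0.42, adjusted p = 0.158) passed (limma voom).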

How the data were processed

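Liver RNA of 12 mice was sequenced from both ends. The submitters' processing notes name fastp, HISAT2 2.0.5, featureCounts 1.5.0-p3 and GRCm38, and the authors deposited gene-level FPKM values as 1 table. The methods give the unit as TPM, but column totals lay between 342146 and 429286, so the values were taken as FPKM. Gene lengths and coordinates of all 31 members equal those of GENCODE M21, and 9 members share exon bases with another gene. Strand of counting is not stated in the sources used here. Multiplied by length, 100% of the values above 0 and up to 100 fragments were whole steps of 1 fragment (tolerance 0.1 step). Higher values were rounded to whole fragments without this check. A count of 3 fragments on a gene of 2 kb stands for 0.0607 to 0.0944 FPKM, by counting error only.

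limma 3.58.1 in R 4.3.3 (two-sided, with a trended prior) was fitted to log2(FPKM + 1) of all 12 mice and 11083 genes averaging 1 FPKM or more. Adjustment was by Benjamini-Hochberg over all tested genes for each of 6 comparisons, and an adjusted p-value under 0.05 counted as a call. limma voom on recovered fragments took the library size that the FPKM values imply. No pair of mice within a group agreed within counting error. Replicates are separate mice. Methods were tested on simulated data.

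Members and lists were chosen with earlier results of these data known. All members averaging 1 FPKM or more were named, per mouse where called in control against ND or HYA against control or among the 2 lowest p-values in LA against control, the other members by range, and of each partner list the 3 genes with the lowest p-value in control against ND. Alternatives were no filter, a filter at 0.1 FPKM, a pseudocount of 0.1, TPM, median-ratio size factors, voom, only the groups compared, a replicate block, omission of each mouse and a fold change threshold. A chain gene and some markers are counted in totals but not reported here by name. Settings of the voom fit were added after seeing the data.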

Additional observations from a re-analysis of the deposited data

How the results depend on the processing

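Of 706 recomputed values for the 36 gene results followed, 0 turned direction, 657 kept their side of the threshold and 49 lost it. The 36 were picked from these data, as results already called or those of lowest p-value in HYA or LA against control. Losses were thus far likelier than gains, and the tally does not speak for the other members. The number of members called in control against ND was 9, and it was 14 with a filter at 0.1 FPKM, 16 with voom, 0 with a log2 fold change above 1 and 8 to 10 without one mouse. For HYA against ND it was 6, and 3 without a filter, 0 with the fold threshold and 2 to 7 without one mouse. For LA against ND it was 10, and 16 with a filter at 0.1 FPKM, 16 with voom, 0 with the fold threshold and 9 to 10 without one mouse. On recovered fragments the count in control against ND was 16, 5 with the fold threshold and 12 to 17 without one mouse. With TPM totals it was above this range, as *Itga1*, *Itga3*, *Itgb1*, *Itgb3* and *Lama5* were among the members that then passed as well. In HYA against control the count on recovered fragments was 0, 1 with TPM totals and 0 to 4 without one mouse. Numbers of replicates did not pair the mice (18 pairs, correlation of deviations −0.40 to 0.29, 2 of 12 mice closest to their own number). With a replicate block the voom count in HYA against control was 3 (*Itga6*, *Lama2* and *Lamc1*), and that in HYA against LA was 3 in place of 0 (*Itga6*, *Itga9* and *Lama2*). With the same block in the FPKM fit, the adaptor list had 1 call and the basement membrane list 3 in HYA against control. The FPKM count of members in control against ND was then 9. Other integrin chains had 2 calls in control against ND, 1 with only the groups compared, 1 with the fold threshold and 1 to 2 without one mouse. In HYA against control they had 1, and 0 without a filter, with a pseudocount of 0.1, with only the groups compared or with the fold threshold, and 0 to 1 without one mouse. Adaptors had 8 calls in control against ND, 15 with TPM, 0 with the fold threshold and 7 to 9 without one mouse, and in HYA against control 0, 1 with TPM and 0 to 1 without one mouse. Basement membrane genes had 12, 4 with the fold threshold and 10 to 12 without one mouse, and in HYA against control 0, 2 with TPM, 2 with voom and 0 to 4 without one mouse. With TPM, rescaled to the mean FPKM total, the summed levels were 17.2 for integrin α genes in ND-fed mice, 74.6, 102.8 and 101.1 for integrin β genes in ND-fed, control and LA-treated mice, 7.09 for laminin β genes in control mice and 3.25 for laminin γ genes in ND-fed mice. The cause of these shifts was not tested. Depth limits the low members, such as *Itgb6* with 0 to 12 and *Itga11* with 2 to 11 fragments per mouse.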

Other observations

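*Itga1* and *Itga2* lie near each other on chromosome 13. *Itga1* was not called in control against ND, and *Itga2* was too low to be tested, with 1 fragment in each of the 3 ND-fed mice and at least 5 in each of the 9 mice on the HFD.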
